A study of Mus musculus with 30 samples.

Results

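The 10 genes described here make new fatty acids from acetyl units: the citrate carrier Slc25a1, the acetyl-CoA producers Acly and Acss2, the NADPH producer Me1, the carboxylases Acaca and Acacb, the synthase Fasn, the glycolytic enzyme Pklr, the lipogenic protein Thrsp and the transcription factor Mlxipl. They were taken by gene symbol from both count tables, which share 23703 symbols, and all 10 were found in each table. The labels describe 30 libraries of polyadenylated RNA from primary mouse cells, with 12 groups: 3 libraries in each of 6 groups of thioglycollate-elicited macrophages, and 2 libraries in each of 6 groups of hepatocytes. Macrophages grew in RPMI medium and hepatocytes in Hepatozyme medium. Every group, vehicle included, was moved 24 h before treatment to 10% lipid-deficient serum containing mevalonate at 50 uM and mevastatin, a statin, at 10 uM, and stayed in lipid-deficient medium for the 18 to 20 h with ligand.

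Within each cell type the groups were desmosterol at 10 uM, DMHCA, MePipHCA, GW3965 and T0901317 at 1 uM each, and vehicle, which the labels give as DMSO or ethanol. Desmosterol is a late precursor of cholesterol. DMHCA and MePipHCA are synthetic cholenamides that differ in the amide group, a dimethylamide in DMHCA and a methylpiperidine amide in MePipHCA. These 3 are called sterol-type ligands below, for their structure alone. GW3965 and T0901317 are synthetic, non-steroidal agonists of the liver X receptors (LXR), nuclear receptors that respond to oxysterols. They are called the synthetic agonists below. These names do not mean that the sterol-type ligands lack action on LXR. Most of the LXR targets listed below rose with every ligand in macrophages. The study's title places the comparison in the LXR and SREBP pathways of macrophages. Strain, sex and age of the mice are not in the labels used here. Nor is the origin of the replicates (animals or cultures), so p-values measure the spread between these libraries, which may be technical. Cell type cannot be told apart from culture medium or from the 2 dates in the sample titles.

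Fatty acid synthesis starts from citrate, which Slc25a1 carries out of mitochondria and Acly splits to acetyl-CoA. Acss2 makes acetyl-CoA from acetate, Acaca and Acacb carboxylate it to malonyl-CoA in the cytosol and at the mitochondrial surface, and Fasn builds palmitate with NADPH, part of which comes from Me1. The genes are classical targets of the SREBP factors, of which SREBP-1c is itself encoded by an LXR target, Srebf1, while sterols hold SREBP precursors in the endoplasmic reticulum. In liver, Mlxipl, also called ChREBP, responds to glucose and drives Pklr, the liver pyruvate kinase, and Thrsp, also called Spot 14.

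Sequences around annotated starts are shown for the members whose levels moved together or apart below: Fasn, Acly, Acss2 and Slc25a1, which fell with desmosterol in macrophages, Acaca, which did not, and a liver-type start of Pklr, a gene whose count fell with MePipHCA in hepatocytes although the transcript counted there starts upstream of the window shown. Each is RefSeq's reference sequence on GRCm38.p6, 250 bases before and 50 after an annotated start, 5′ to 3′ on the gene's strand. Capitals mark matches, on either strand, to CCAAT (the NF-Y box), CACGTG (an E-box), TCACNCCAC (a sterol regulatory element) and CACGNG followed after 5 bases by CNCGTG (a carbohydrate response element). Fasn on chr11:120824498-120824797, minus strand, Acly on chr11:100527951-100528250, minus strand, and Acss2 on chr2:155517793-155518092, plus strand, come first, followed by Slc25a1 on chr16:17928170-17928469, minus strand, Acaca on chr11:84195188-84195487, plus strand, and the liver-type start of Pklr on chr3:89136373-89136672, plus strand.
Fasn: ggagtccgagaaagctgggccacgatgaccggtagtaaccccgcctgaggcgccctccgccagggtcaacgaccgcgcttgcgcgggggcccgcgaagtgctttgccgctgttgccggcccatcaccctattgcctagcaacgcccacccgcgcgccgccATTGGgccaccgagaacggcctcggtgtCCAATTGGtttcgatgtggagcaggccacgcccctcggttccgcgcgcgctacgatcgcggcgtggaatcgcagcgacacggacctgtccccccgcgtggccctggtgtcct
Acly: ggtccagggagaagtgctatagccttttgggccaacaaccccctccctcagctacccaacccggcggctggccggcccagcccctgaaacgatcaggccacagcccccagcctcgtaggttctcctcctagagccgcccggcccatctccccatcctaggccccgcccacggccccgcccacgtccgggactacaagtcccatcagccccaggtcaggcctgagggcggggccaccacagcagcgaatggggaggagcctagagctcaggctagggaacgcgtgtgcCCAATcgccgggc
Acss2: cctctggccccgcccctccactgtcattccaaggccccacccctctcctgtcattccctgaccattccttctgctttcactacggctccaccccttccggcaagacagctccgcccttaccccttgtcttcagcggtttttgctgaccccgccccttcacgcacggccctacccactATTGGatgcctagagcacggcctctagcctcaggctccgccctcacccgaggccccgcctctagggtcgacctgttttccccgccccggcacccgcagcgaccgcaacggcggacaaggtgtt
Slc25a1: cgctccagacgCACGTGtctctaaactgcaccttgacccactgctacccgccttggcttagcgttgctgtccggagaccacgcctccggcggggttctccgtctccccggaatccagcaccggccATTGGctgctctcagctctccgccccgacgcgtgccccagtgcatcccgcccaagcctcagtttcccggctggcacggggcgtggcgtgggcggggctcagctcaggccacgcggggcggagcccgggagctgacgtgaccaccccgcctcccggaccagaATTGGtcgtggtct
Acaca: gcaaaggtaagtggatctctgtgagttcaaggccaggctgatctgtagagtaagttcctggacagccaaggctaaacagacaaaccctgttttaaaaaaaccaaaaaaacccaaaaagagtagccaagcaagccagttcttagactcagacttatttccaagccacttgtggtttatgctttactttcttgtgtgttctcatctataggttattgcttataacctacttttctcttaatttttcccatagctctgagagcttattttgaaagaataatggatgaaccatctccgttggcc
Pklr: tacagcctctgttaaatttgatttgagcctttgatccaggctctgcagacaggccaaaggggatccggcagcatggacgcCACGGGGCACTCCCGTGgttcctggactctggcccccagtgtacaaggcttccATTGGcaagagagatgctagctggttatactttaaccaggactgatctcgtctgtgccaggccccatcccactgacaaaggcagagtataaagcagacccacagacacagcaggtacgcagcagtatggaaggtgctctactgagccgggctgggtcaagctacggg

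The Fasn window held 3 CCAAT matches, at −90, −62 and −59 counted with the first transcribed base as 0, and those at −62 and −59 overlap. Acss2 held 1 at −73, Slc25a1 held 2 at −125 and 36 besides an E-box at −239, and Acly held 1 at 37, inside the transcript. The Acaca window held no match to the capitalised motifs. Of 32851 mouse promoter windows of the same 300 bases, 37.4% held CCAAT, 7.15% the E-box, 1.24% the sterol regulatory element letters and 0.0457% the carbohydrate response element. The Pklr window held that last motif at −170 to −154, and a CCAAT match at −117. The direct repeat LXR binds, searched as 2 copies of AGGTCA with 4 bases between them, was in 0.0152% of windows and in none of the 13 windows of the 10 members, which concerns these letters and these 300 bases alone. The members with no window printed lie, in mm10, on chr5:114165518-114250758 (Acacb, plus strand), chr9:86581363-86695914 (Me1, minus strand), chr5:135106891-135138382 (Mlxipl, plus strand) and chr7:97412957-97417510 (Thrsp, minus strand). Acaca is known to be transcribed from several promoters, and only the window of 1 RefSeq start is printed. The bases before that start end in a pyrimidine-rich stretch and AG, as the end of an intron does. That window may therefore be intron, and its lack of matches says nothing about the promoters of Acaca. The hepatocyte table counts a Pklr transcript that starts upstream of the window shown and the macrophage table one that starts in it. They share later exons, so which isoform was counted is not resolved.

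Library totals were 3862655 to 15685961 counts in macrophages and 6627812 to 18626562 in hepatocytes. Levels below are CPM, counts over a library's total after TMM scaling within a cell type. edgeR's quasi-likelihood test was fitted across all genes of a table, and "rose", "fell" and "called" mean a Benjamini-Hochberg adjusted p below 0.05. All 10 members passed the filter on low counts in hepatocytes, but only 6 did in macrophages: Acly, Slc25a1, Acss2, Acaca, Fasn and, at about 1 CPM, Me1. The macrophage libraries held Acacb at 1 to 19 counts each, 124 in all. Mlxipl came to 9 counts over the 18 libraries, Pklr to 13 and Thrsp to 3, so these 4 genes stayed under the filter and were not tested between ligands there. With no filter none of the 4 was called in any macrophage comparison of ligands or vehicle, the lowest adjusted p being 0.369, for Acacb in MePipHCA against DMHCA.

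Without ligand, 9 of the 10 genes were lower in macrophages than in hepatocytes, with the widest gaps in Mlxipl, Thrsp and Pklr. For this comparison all libraries were scaled together. Relative to library totals, this shifted macrophage-to-hepatocyte differences toward macrophages, by 0.44 on the log2 scale as a mean over all libraries. Levels are given per kilobase of transcript (RPKM) so that genes can be set beside each other. Vehicle macrophages held Acly at 88.8 ± 3.99 RPKM and Slc25a1 at 56.5 ± 3.60 RPKM (SD, n = 3), while vehicle hepatocytes held Slc25a1 at 174.7 ± 6.82 RPKM and Acly at 104.9 ± 1.57 RPKM (SD, n = 2). Fasn stood at 11.7 to 14.3 RPKM in the 3 macrophage libraries and at 29.2 and 32.6 RPKM in the hepatocyte libraries. Acaca stood at 2.76 ± 0.32 RPKM in macrophages and 3.07 ± 0.03 RPKM in hepatocytes.

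In hepatocytes the per-length order after Slc25a1 and Acly ran Pklr (66.8 RPKM), Thrsp (41.1), Mlxipl (32.1), Fasn, Me1 (29.5), Acss2 (13.6), Acaca and Acacb (2.32). In macrophages it ran Acly, Slc25a1, Fasn, Acss2 (4.04 RPKM) and Acaca, with Me1 at 0.38 and Acacb at 0.11. The hepatocyte libraries of Mlxipl, Fasn and Me1 overlapped, and no other neighbours in either order did.

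**Figure D1:**
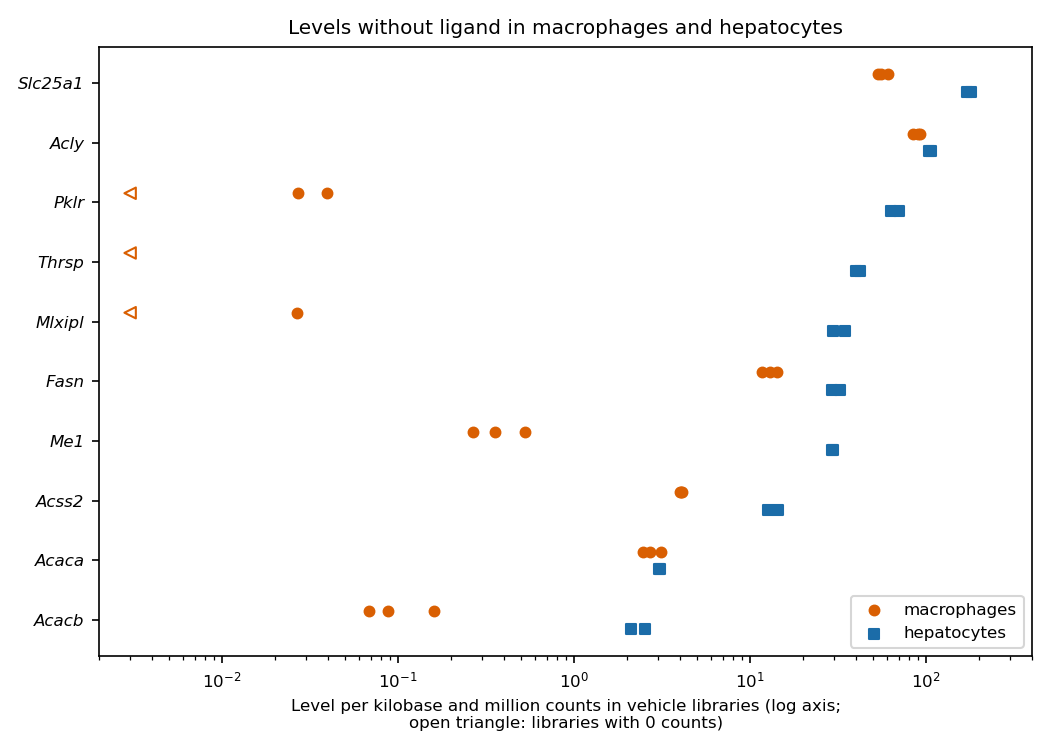
Levels of the 10 genes in vehicle libraries (log axis, RPKM with all libraries scaled together), with 3 macrophage libraries as circles and 2 hepatocyte libraries as squares. Acly and Acaca lie close together in the cell types, while Pklr, Thrsp and Mlxipl have macrophage libraries at 0 counts, drawn as open triangles.

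On the log2 scale, macrophages minus hepatocytes, the difference was −0.24 ± 0.06 (SE) for Acly, −1.25 ± 0.08 for Fasn, −1.63 ± 0.08 for Slc25a1, −1.76 ± 0.13 for Acss2, −4.38 ± 0.25 for Acacb and −6.20 ± 0.18 for Me1. These 6 were called lower in macrophages, and with Mlxipl, Pklr and Thrsp 9 of 10 were, with adjusted p values of the 6 between 1.29e-31 for Me1 and 0.000893 for Acly. Acaca was not called (−0.15, 95% interval −0.40 to 0.10, adjusted p = 0.274). The interval does not cover the choice of scaling, whose mean shift of 0.44 over all libraries is larger than the differences of Acaca and Acly. The closeness of these 2 genes between cell types thus depends on that scaling. Between cell types a call is common, since 78.2% of 13700 genes were called, 36.5% higher and 41.8% lower in macrophages (medians −3.07 for members and −0.10 for all genes). For Mlxipl the vehicle macrophages summed to 1 count, against 2618 counts in the hepatocytes, a ratio of 3850-fold with a counting interval of 690.5 to 152137. Pklr had 2 counts in macrophages and 4345 in hepatocytes (3195-fold, counting interval 884 to 26391). Thrsp had 0 counts in macrophages and 974 in hepatocytes, at least 477-fold lower in macrophages at a floor of 3 counts over the group. Both intervals and this floor cover counting error alone. Summed markers matched the labelled cell types: 8 summed hepatocyte markers reached at most 0.461 CPM in any macrophage library, with Ttr, Tat and Fgb at 0, against 30562 to 37823 CPM in hepatocyte libraries, where 8 macrophage markers summed to 281 to 433 CPM. The largest of the 8 there were Cd68 (156 to 280 CPM) and Cd14 (94.9 to 140 CPM). Cd68, Csf1r, Lyz2, Itgam and Mrc1 were higher in macrophages. Cd14 (55.8 to 80.6 CPM in macrophages, scaled within that cell type) and Clec4f (0 in macrophages, up to 13.3 CPM in hepatocytes) were not.

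In macrophages the sterol-type ligands lowered the supply genes together. Acly, which makes cytosolic acetyl-CoA, had 232, 248 and 227 CPM with desmosterol, 239, 231 and 256 CPM with DMHCA and 217, 213 and 204 CPM with MePipHCA, against 326, 348 and 354 CPM with vehicle. No library of these ligands reached the lowest vehicle library. Acly fell by 0.54 ± 0.05 on the log2 scale with desmosterol, by 0.50 ± 0.05 with DMHCA and by 0.70 ± 0.05 with MePipHCA (adjusted p = 8.13e-11, 1.27e-09 and 3.4e-14). With the synthetic agonists it had 401, 419 and 383 CPM for GW3965 and 379, 378 and 381 CPM for T0901317, all above vehicle. The rise passed for GW3965 (0.23 ± 0.05, adjusted p = 0.0012) and missed the threshold for T0901317 (0.15 ± 0.05, adjusted p = 0.0522).

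Slc25a1, the citrate carrier, followed the same split. Its libraries held 58.0, 58.6 and 57.4 CPM with desmosterol, 55.8, 58.8 and 63.3 CPM with DMHCA and 46.1, 46.2 and 50.3 CPM with MePipHCA, against 78.2, 88.3 and 81.4 CPM with vehicle. The MePipHCA libraries were the lowest of all 18 and overlapped no other group. Slc25a1 fell by 0.51 ± 0.07, 0.47 ± 0.07 and 0.79 ± 0.08 with the 3 ligands in that order (adjusted p = 2.8e-07, 5.62e-06 and 2.06e-11). With GW3965 it stood at 83.6 to 89.4 CPM and with T0901317 at 82.8 to 97.7 CPM, both overlapping vehicle, and neither change was called (0.07, 95% interval −0.07 to 0.20, and 0.10, −0.04 to 0.24).

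Acss2, the acetate-activating enzyme, was scarcer but moved further. It had 5.80, 5.43 and 5.46 CPM with desmosterol, 3.93, 3.67 and 6.95 CPM with DMHCA and 4.98, 3.54 and 4.55 CPM with MePipHCA, against 9.97, 9.81 and 10.1 CPM with vehicle. All 9 sterol-type libraries lay below all 3 vehicle libraries. It fell by 0.84 ± 0.17 with desmosterol, 0.96 ± 0.19 with DMHCA and 1.18 ± 0.21 with MePipHCA (adjusted p = 0.000367, 0.000391 and 1.09e-05). GW3965 (11.1 to 13.6 CPM) and T0901317 (10.9 to 14.8 CPM) left it above vehicle in every library without a call (adjusted p = 0.303 and 0.207). Me1, at 0.401 to 3.76 CPM, passed against vehicle with no ligand, and its intervals were wide, such as −2.18 to 0.28 with MePipHCA.

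**Figure D2:**
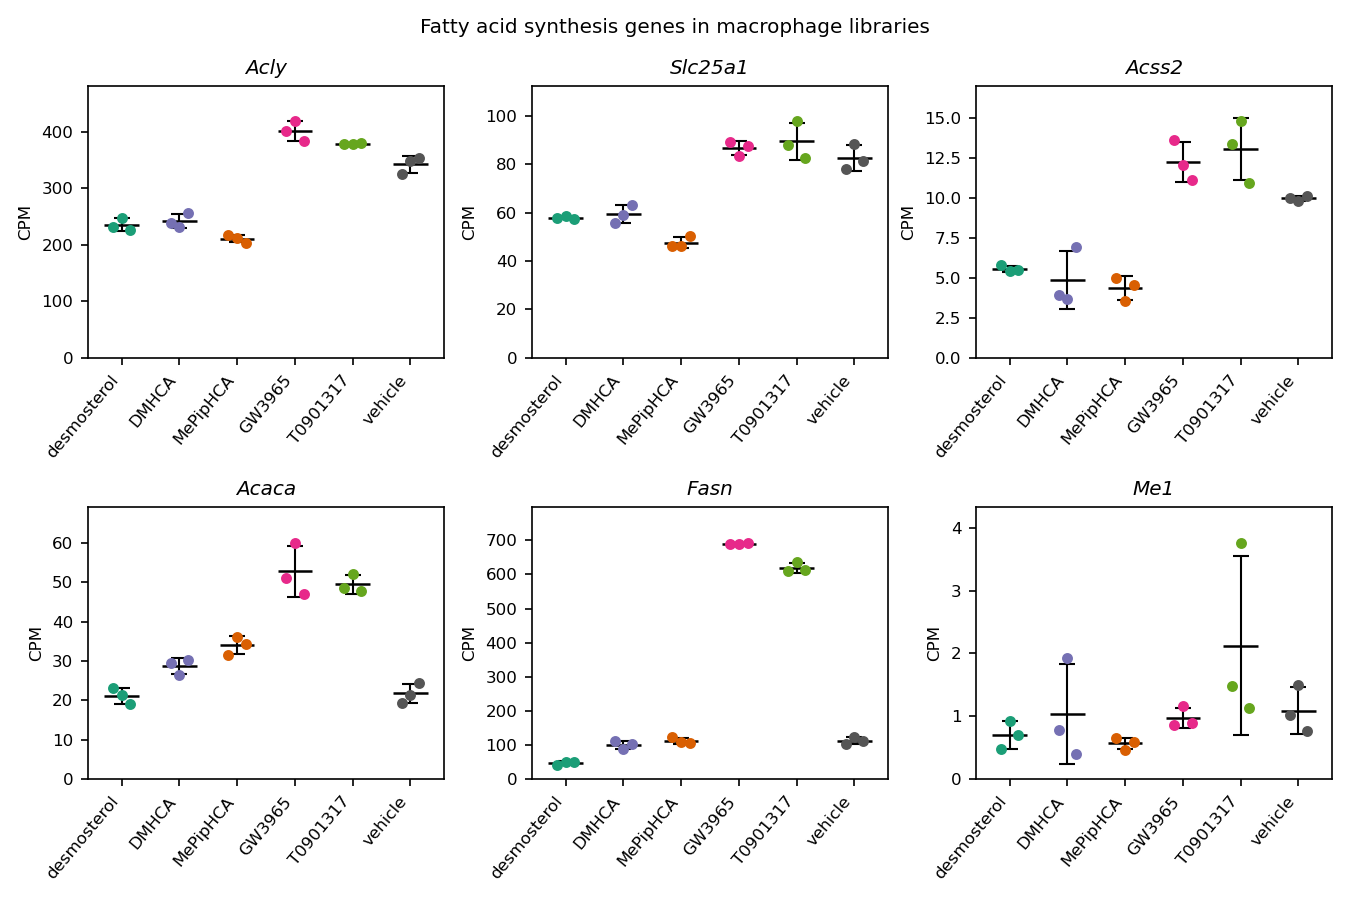
CPM of the 6 tested genes in each macrophage library (points, 3 per group), with mean and SD as black lines and vehicle at the right of each panel. Acly, Slc25a1 and Acss2 lie below vehicle with desmosterol, DMHCA and MePipHCA, Acaca lies above it with all ligands but desmosterol, and Fasn is lowest with desmosterol, at 42.6 to 51.3 CPM, and highest with GW3965, at 688 to 692 CPM.

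The carboxylase did not follow the supply genes. Acaca, which makes malonyl-CoA, had 23.1, 21.3 and 19.1 CPM with desmosterol, 29.6, 26.4 and 30.2 CPM with DMHCA, 31.6, 36.1 and 34.5 CPM with MePipHCA, 51.2, 60.0 and 47.1 CPM with GW3965 and 48.6, 52.1 and 47.7 CPM with T0901317, against 19.5, 21.4 and 24.5 CPM with vehicle. The desmosterol libraries overlapped vehicle and those of the other ligands lay above it. Acaca rose by 0.40 ± 0.11 with DMHCA, 0.64 ± 0.11 with MePipHCA, 1.27 ± 0.10 with GW3965 and 1.17 ± 0.10 with T0901317 (adjusted p = 0.00991, 4.79e-06, 8.14e-14 and 1.94e-12). The DMHCA call was lost without DMHCA replicate 3 (adjusted p = 0.0977) or vehicle replicate 1 (0.06). With desmosterol the difference was −0.04 (95% interval −0.24 to 0.17).

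Fasn, which assembles palmitate, spanned 14.3-fold between its highest and lowest macrophage group, the widest of the 6. It had 42.6, 50.8 and 51.3 CPM with desmosterol, 111, 89.1 and 103 CPM with DMHCA, 122, 109.7 and 106 CPM with MePipHCA, 691, 688 and 692 CPM with GW3965 and 611, 637 and 612 CPM with T0901317, against 102, 124 and 113 CPM with vehicle. Desmosterol libraries were below, and those of the synthetic agonists above, every vehicle library, whereas DMHCA and MePipHCA overlapped vehicle. Fasn fell by 1.23 ± 0.07 with desmosterol (adjusted p = 2.86e-17) and rose by 2.61 ± 0.07 with GW3965 and 2.45 ± 0.07 with T0901317 (adjusted p = 1.1e-30 and 1.34e-29). It was not called with DMHCA (−0.17, 95% interval −0.32 to −0.03, adjusted p = 0.131) or MePipHCA (−0.01, −0.15 to 0.14, adjusted p = 0.951). The DMHCA value became a call without vehicle replicate 1 (−0.24, adjusted p = 0.0326).

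As a count over the 6 tested members, desmosterol lowered 4 and raised 0. Of 11544 genes 9.5% were called for it, 4.93% higher and 4.57% lower, and the median change was −0.59 for members and −0.00 for all genes. DMHCA raised 1 and lowered 3, with 11.7% of genes called (5.8% higher, 5.9% lower) and medians of −0.32 and −0.00. MePipHCA likewise raised 1 and lowered 3, with 35.4% of genes called (17.2% higher, 18.3% lower) and medians of −0.75 and 0.00. GW3965 raised 3 and lowered 0, with 13.2% of genes called (6.54% higher, 6.69% lower) and medians of 0.25 and −0.00. T0901317 raised 2 and lowered 0, with 12.8% called (6.29% higher, 6.55% lower) and medians of 0.52 and 0.00. The background for MePipHCA is thus the highest of the 5, at 35.4%.

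The ratio of Fasn to Acly within a library, which needs no scaling between libraries, separated the ligands. Per kilobase it was 0.0911 ± 0.00950 with desmosterol, 0.185 ± 0.0190 with DMHCA, 0.237 ± 0.0117 with MePipHCA, 0.766 ± 0.0362 with GW3965 and 0.726 ± 0.0190 with T0901317, against 0.146 ± 0.0102 with vehicle (SD, n = 3). The ranges with DMHCA and MePipHCA lay above that of vehicle and the range with desmosterol below it. In hepatocytes the same ratio was 0.516 ± 0.0108 with GW3965 and 0.515 ± 0.0193 with T0901317, against 0.295 ± 0.0270 with vehicle, and 0.327 to 0.376 on average with the other ligands (SD, n = 2). Fasn over Acaca in macrophages was 2.09 ± 0.385 with desmosterol, 3.19 ± 0.196 with DMHCA, 3.02 ± 0.423 with MePipHCA and 11.4 ± 0.280 with T0901317, against 4.73 ± 0.542 with vehicle, and the GW3965 libraries ran over 10.4 to 13.3. The cholenamides thus lay below vehicle on this ratio and above it on Fasn over Acly. A ratio shows that the genes changed unequally and does not show which of them moved.

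Some marker lists of other cells, though not all, were lower in the MePipHCA group of macrophages. The summed level of 6 markers of stellate cells and fibroblasts was 78.4 to 96.2 CPM with MePipHCA and 139.6 to 200.1 CPM with DMHCA, against 234.5 to 297.1 CPM with vehicle. The 4 mesothelial markers summed to 5.41 to 7.04 CPM with MePipHCA and 14.1 to 15.4 CPM with DMHCA, against 17.5 to 24.8 CPM with vehicle. With MePipHCA the cholangiocyte and the T and NK cell lists also lay below vehicle. The endothelial, B cell and neutrophil lists overlapped vehicle. Of 8 macrophage markers, 7 were in the table and 6 were detected, Clec4f being at 0, and they summed to 12574 to 12811 CPM with MePipHCA and 15929 to 16015 CPM with vehicle. With GW3965 the fibroblast list summed to 209 to 213 CPM and the macrophage list to 14758 to 15707 CPM, and with T0901317 they summed to 247.7 to 325.7 and 14223 to 14907 CPM. With desmosterol the fibroblast list summed to 224 to 283.8 CPM. The part of these shifts in the members' changes was not tested, and in such bulk libraries fewer cells of a type and less RNA per cell cannot be told apart.

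In hepatocytes Fasn rose with the synthetic agonists and was not called with any sterol-type ligand. Fasn had 354 and 344 CPM with desmosterol, 463 and 432 CPM with DMHCA, 363 and 352 CPM with MePipHCA, 777 and 788 CPM with GW3965 and 779 and 761 CPM with T0901317, against 381 and 345 CPM with vehicle. Only the agonist libraries and those of DMHCA lay above both vehicle libraries. The rise was 1.11 ± 0.08 with GW3965 and 1.08 ± 0.08 with T0901317 (adjusted p = 1.6e-10 and 2.72e-10). DMHCA gave 0.30 (95% interval 0.14 to 0.46), which did not pass (adjusted p = 0.707), and no gene of 13176 passed for DMHCA in hepatocytes by edgeR's quasi-likelihood test or by DESeq2, with 615 at an unadjusted p below 0.05. Without DMHCA replicate 2, 27 genes passed, and 22 did with no filter on low counts. Desmosterol gave −0.06 (−0.22 to 0.10) and MePipHCA −0.02 (−0.18 to 0.14).

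Acss2 changed in both directions. It had 43.5 and 39.6 CPM with desmosterol, 55.7 and 46.1 CPM with DMHCA, 26.6 and 28.3 CPM with MePipHCA, 68.9 and 70.7 CPM with GW3965 and 69.1 and 71.5 CPM with T0901317, against 48.2 and 42.6 CPM with vehicle. MePipHCA libraries were the lowest and agonist libraries the highest, with no overlap with vehicle. It fell by 0.73 ± 0.13 with MePipHCA (adjusted p = 0.00111) and rose by 0.61 ± 0.12 with GW3965 and 0.62 ± 0.13 with T0901317 (adjusted p = 0.0114 and 0.00835). The MePipHCA call was lost without vehicle replicate 1 (adjusted p = 0.0571). The agonist calls were lost without vehicle replicate 2 (0.223 and 0.188) and without either replicate of the agonist (0.0612 to 0.118).

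Acly had 428 and 417 CPM with MePipHCA, against 539 and 556 CPM with vehicle, and fell by 0.37 ± 0.08 (adjusted p = 0.00516). That call was lost without either MePipHCA library (adjusted p = 0.0569 and 0.124). With desmosterol it stood at 464 and 486 CPM, below both vehicle libraries, without a call (adjusted p = 0.435; −0.21, 95% interval −0.36 to −0.05). With the agonists it was above vehicle, 659 and 688 CPM for GW3965 and 690.2 and 639.5 CPM for T0901317, without a call (0.30, adjusted p = 0.0896, and 0.28, adjusted p = 0.0818), whereas DESeq2 called both (0.0036 and 0.00694). Slc25a1, at 291 and 301 CPM with MePipHCA against 335 and 357 CPM with vehicle, did not pass with any ligand (−0.23, −0.42 to −0.03, with MePipHCA).

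Both carboxylases stood above vehicle in every agonist-treated hepatocyte library, with 1 call among the 4 comparisons. Acaca had 48.6 and 46.6 CPM with GW3965 and 49.5 and 53.6 CPM with T0901317, against 32.4 and 33.1 CPM with vehicle. All agonist libraries lay above vehicle, yet only T0901317 passed (0.65 ± 0.15, adjusted p = 0.0201), with GW3965 at 0.54 ± 0.14 (adjusted p = 0.114), and the T0901317 call was lost when any of the 4 libraries was left out (0.0786 to 0.161). Acacb, the mitochondrial-surface isoform, had 39.3 and 34.9 CPM with GW3965, 34.1 and 34.0 CPM with T0901317 and 15.4 and 16.5 CPM with MePipHCA, against 25.3 and 21.2 CPM with vehicle. GW3965 gave 0.66 ± 0.16 (adjusted p = 0.061), T0901317 0.54 ± 0.16 (0.125) and MePipHCA −0.55 ± 0.17 (0.0926), none of which passed, although DESeq2 called the GW3965 value (0.0342).

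**Figure D3:**
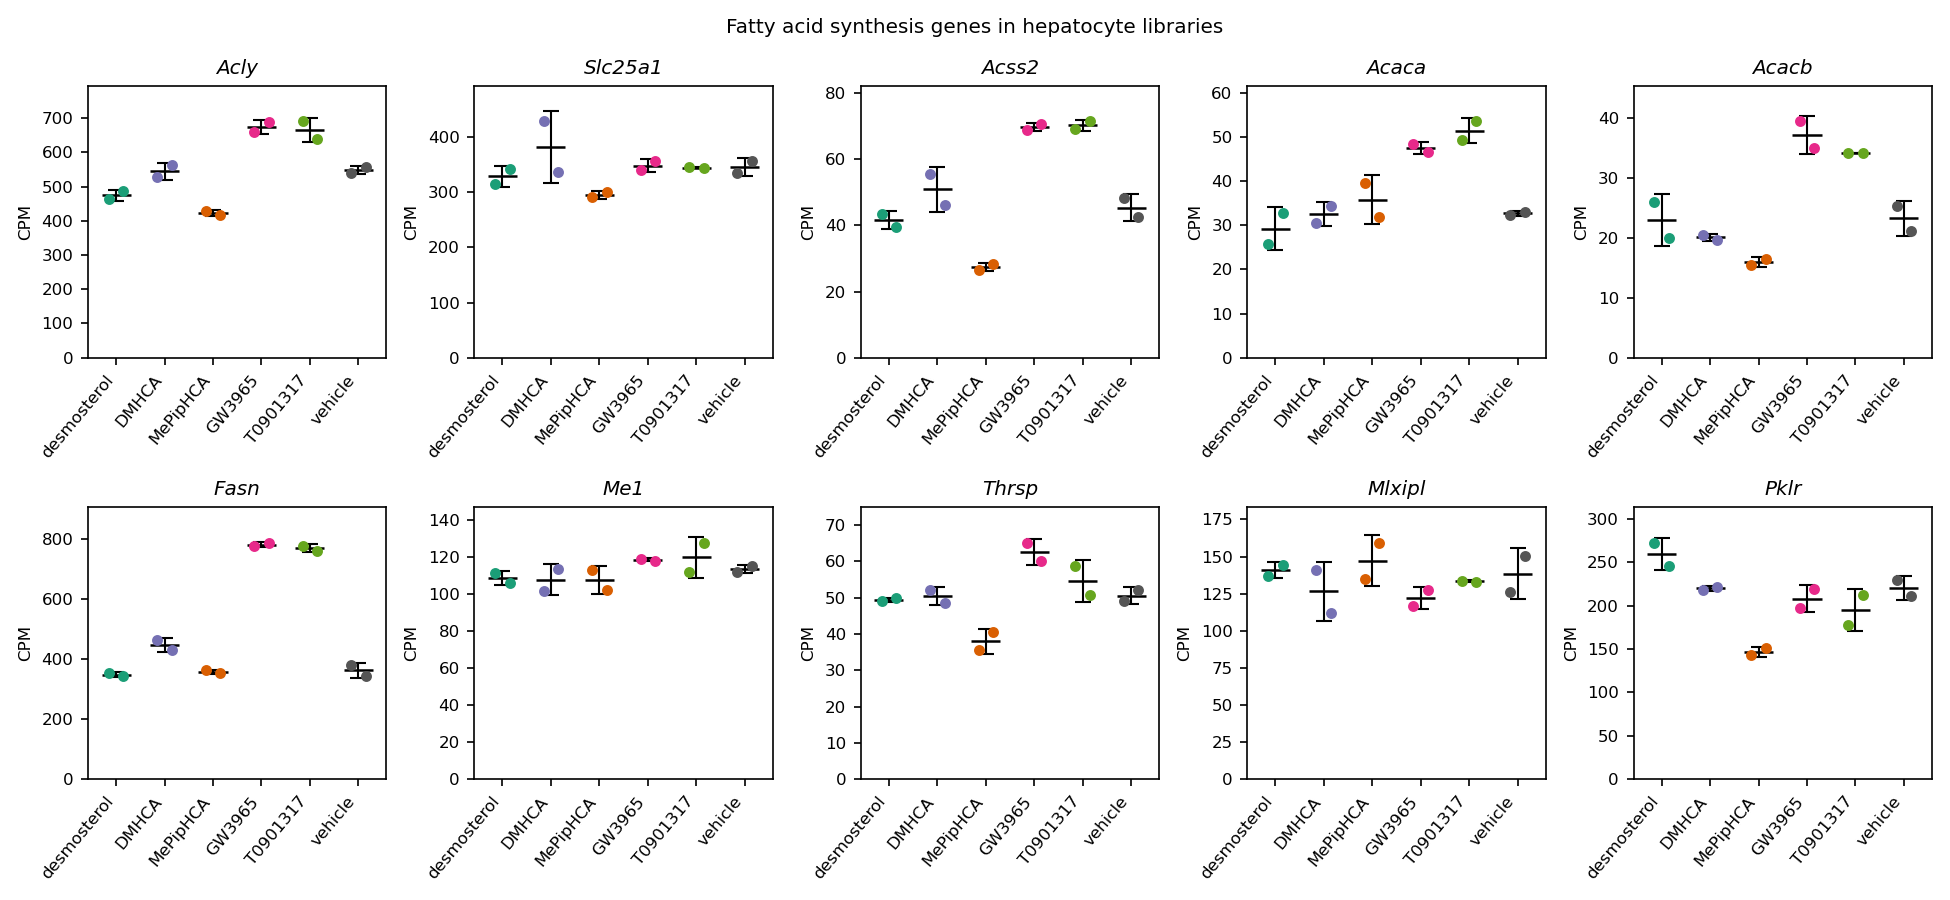
CPM of the 10 genes in each hepatocyte library (points, 2 per group), with mean and SD as black lines and vehicle at the right of each panel. Fasn, Acss2 and the carboxylases are highest with GW3965 and T0901317, Pklr, Thrsp and Acss2 are lowest with MePipHCA, and Me1 and Mlxipl differ little between groups.

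The glucose-responsive genes gave a single call in hepatocytes. Pklr, the liver pyruvate kinase, had 143 and 151 CPM with MePipHCA, against 229.6 and 211 CPM with vehicle, and fell by 0.58 ± 0.10 (adjusted p = 0.000426). The Pklr window printed above holds the carbohydrate response element letters. With the other ligands Pklr stood at 178 to 272 CPM, highest with desmosterol (272 and 246 CPM, 0.23 ± 0.10, adjusted p = 0.49). Thrsp had 35.6 and 40.4 CPM with MePipHCA against 48.9 and 52.1 CPM with vehicle and did not pass (−0.40, 95% interval −0.66 to −0.15, adjusted p = 0.101). Mlxipl, whose product acts on both, stood at 135 and 159 CPM with MePipHCA against 126 and 150.4 CPM with vehicle (0.10, −0.13 to 0.32). Me1 ranged over 102 to 128 CPM in all 12 hepatocyte libraries and its group means by 1.11-fold, the narrowest of the 10.

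Over the 10 members in hepatocytes, desmosterol called 0 (0.364% of 13176 genes called, 0.205% higher and 0.159% lower, medians −0.06 for members and 0.00 for all genes) and DMHCA called 0 (0% called, medians −0.00 and 0.00). At an unadjusted p below 0.05 these 2 ligands had 2 members, Pklr and Acly, and 1 member, Fasn, and DESeq2 also called 0 members for each. MePipHCA lowered 3 and raised 0 (2.17% called, 0.789% higher and 1.38% lower, medians −0.30 and 0.00). GW3965 raised 2 (0.478% called, 0.364% higher and 0.114% lower, medians 0.30 and 0.00) and T0901317 raised 3 (0.941% called, 0.486% higher and 0.455% lower, medians 0.20 and −0.00). Without GW3965 replicate 1 or 2 or vehicle replicate 2, GW3965 raised 1 member, Fasn. T0901317 likewise raised Fasn alone without T0901317 replicate 1 or 2 or vehicle replicate 2.

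**Figure D4:**
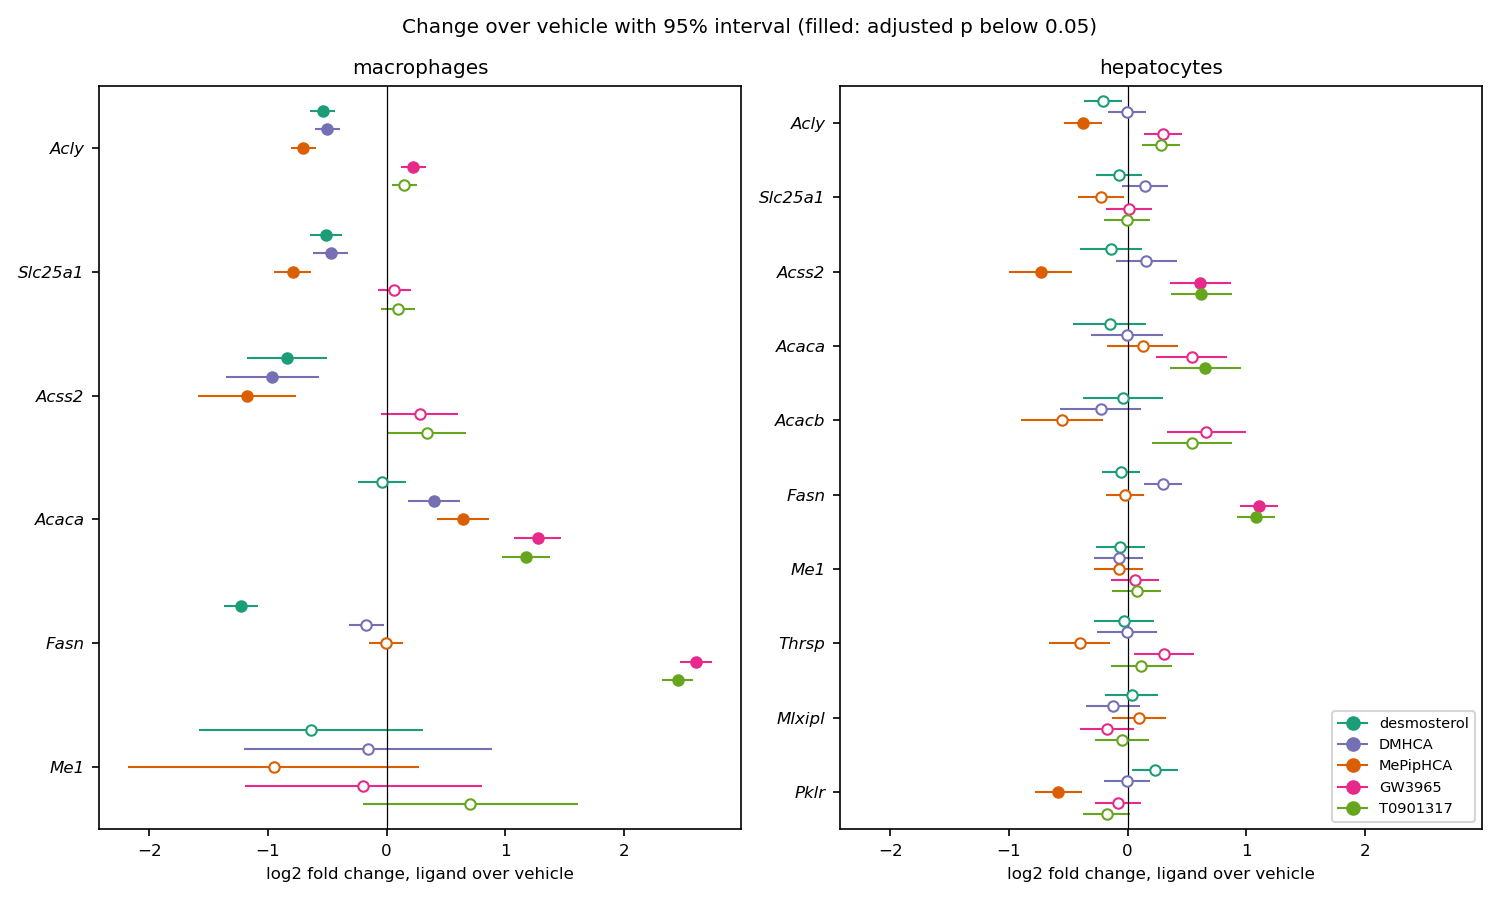
Log2 fold change over vehicle with its 95% interval for the tested genes in macrophages (left) and hepatocytes (right), 1 colour per ligand, filled where the adjusted p was below 0.05. Fasn reaches 2.61 with GW3965 and −1.23 with desmosterol in macrophages, while in hepatocytes it reaches 1.11 with GW3965 and −0.06 with desmosterol.

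Ligands were also set against each other at the matched dose of 1 uM. In macrophages MePipHCA gave less Slc25a1 (−0.32 ± 0.08, adjusted p = 0.00374) and less Acly (−0.20 ± 0.06, adjusted p = 0.00653) than DMHCA, 2 of 6 members against 22.9% of all genes called, 10.7% higher and 12.1% lower (medians −0.21 and −0.00). The Acly call was lost without DMHCA replicate 3 (adjusted p = 0.0811) or MePipHCA replicate 3 (0.0645). Acss2 (−0.21, 95% interval −0.72 to 0.30), Acaca (0.25, 0.01 to 0.48) and Fasn (0.16, 0.01 to 0.32) were not called, though Fasn was without DMHCA replicate 1 (0.0401).

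In hepatocytes MePipHCA was lower than DMHCA for 5 of 10 members, with 3.3% of all genes called, 1.29% higher and 2.01% lower (medians −0.35 and −0.00). They were Acss2 (−0.89 ± 0.13, adjusted p = 3.93e-05), Pklr (−0.58 ± 0.10, 0.000295), Acly (−0.37 ± 0.08, 0.00454), Slc25a1 (−0.37 ± 0.09, 0.0201) and Fasn (−0.32 ± 0.08, 0.0153). Acss2 and Pklr were the pair still called without MePipHCA replicate 2, while without DMHCA replicate 1 or MePipHCA replicate 1 the calls for Slc25a1 and Fasn were lost. Slc25a1 had 429 and 336 CPM in the DMHCA libraries, the widest pair of that gene.

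The synthetic agonists could not be separated on these genes. GW3965 against T0901317 called 0 of 6 members in macrophages (0.0173% of all genes called, 0.00866% in each direction, medians 0.02 and −0.00) and 0 of 10 in hepatocytes (0% called, medians 0.02 and −0.00), by edgeR's quasi-likelihood test and by DESeq2. At an unadjusted p below 0.05 there was 1 member in macrophages, Fasn, and 0 in hepatocytes. For Fasn the interval of the difference was 0.03 to 0.28 in macrophages, where the 3 GW3965 libraries lay above the 3 T0901317 libraries, and −0.14 to 0.18 in hepatocytes.

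Against T0901317, Fasn was lower with both cholenamides in both cell types. DMHCA was lower for 5 of 6 in macrophages (5.12% of all genes called, 2.25% higher and 2.87% lower, medians −0.82 and 0.00), with Fasn at −2.63 ± 0.07, Acss2 at −1.30 ± 0.20 and Acaca at −0.78 ± 0.11. MePipHCA was lower for all 6 (25.9% called, 12% higher and 13.9% lower, medians −1.20 and 0.00), with Fasn at −2.46 ± 0.07, and with Me1 at −1.66 ± 0.61 (adjusted p = 0.0418). The Me1 value no longer passed when T0901317 replicate 2 (0.251) or any MePipHCA library (0.0782 to 0.12) was left out. In hepatocytes DMHCA was lower for 3 of 10 (0.987% called, 0.44% higher and 0.546% lower, medians −0.22 and 0.00): Fasn (−0.78 ± 0.08), Acacb (−0.77 ± 0.16) and Acaca (−0.66 ± 0.14). Without either T0901317 library Fasn alone was called there. MePipHCA was lower for 7 (6.05% called, 3.14% higher and 2.91% lower, medians −0.52 and −0.01), led by Acss2 (−1.35 ± 0.13), Fasn (−1.11 ± 0.08) and Acacb (−1.09 ± 0.16), and Thrsp (−0.52 ± 0.12, adjusted p = 0.00816) and Pklr (−0.41 ± 0.10, 0.00816) were among them. Leaving out 1 library at a time gave 5 of those 7 in each case.

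The difference between the cell types in response to a ligand was tested directly for the 6 members measured in both, as an interaction in a joint fit. Me1 was among them and was called with no ligand. Desmosterol gave a more negative change in macrophages for Fasn (−1.16 ± 0.11, adjusted p = 4.91e-10), Slc25a1 (−0.44 ± 0.12, 0.0273) and Acly (−0.33 ± 0.09, 0.0364), that is 3 of 6 members against 2.53% of 13700 genes, 1.44% higher and 1.09% lower (medians −0.51 and 0.01). Without macrophage desmosterol replicate 1 or 3, macrophage vehicle replicate 2, hepatocyte desmosterol replicate 2 or hepatocyte vehicle replicate 1, only Fasn was called, with Slc25a1 at 0.0542 to 0.189 and Acly at 0.078 to 0.209. DMHCA gave 4 (2.75% of all genes, 1.42% higher and 1.34% lower, medians −0.49 and −0.03): Acss2 (−1.13 ± 0.23, 0.0013), Slc25a1 (−0.63 ± 0.12, 0.000729), Acly (−0.50 ± 0.09, 0.000448) and Fasn (−0.48 ± 0.11, 0.00877). The Fasn difference with DMHCA no longer passed without replicate 2 of macrophage DMHCA or vehicle, hepatocyte DMHCA replicate 1 or hepatocyte vehicle replicate 2 (0.0608 to 0.0675).

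MePipHCA gave 3 (9.66% of all genes, 5.04% higher and 4.62% lower, medians −0.37 and 0.00): Slc25a1 (−0.55 ± 0.12, adjusted p = 0.00137), Acly (−0.31 ± 0.09, 0.0228) and Acaca (0.54 ± 0.18, 0.0477). Slc25a1 alone was called without macrophage MePipHCA replicate 3 or hepatocyte vehicle replicate 1, and Acly was lost without hepatocyte MePipHCA replicate 1 as well (0.0723 to 0.0882). Acaca no longer passed without hepatocyte MePipHCA replicate 2 (0.314), either hepatocyte vehicle library, macrophage MePipHCA replicate 2 or 3, or macrophage vehicle replicate 1 or 2 (0.102 to 0.124), nor by DESeq2 (0.0719). GW3965 gave a larger rise in macrophages for Fasn (1.48 ± 0.11, adjusted p = 1.1e-13) and Acaca (0.71 ± 0.17, 0.00996), 2 of 6 against 3.11%, 1.58% higher and 1.53% lower (medians −0.04 and −0.03), and Acaca was lost without macrophage GW3965 replicate 2, hepatocyte GW3965 replicate 2 or hepatocyte vehicle replicate 1 (0.0564 to 0.0603). T0901317 gave it for Fasn alone (1.38 ± 0.11, adjusted p = 9.42e-13), 1 of 6 against 3.64%, 2.28% higher and 1.35% lower (medians 0.32 and 0.01), with Acaca at 0.53 ± 0.17 (adjusted p = 0.0806). Within macrophages Fasn was 690.3 ± 2.25 CPM with GW3965 against 113 ± 10.8 CPM with vehicle. Within hepatocytes it was 782 ± 7.47 CPM with GW3965 against 363 ± 25.4 CPM with vehicle. These CPM were scaled separately in each cell type, so they do not show which cell type held more Fasn.

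**Figure D5:**
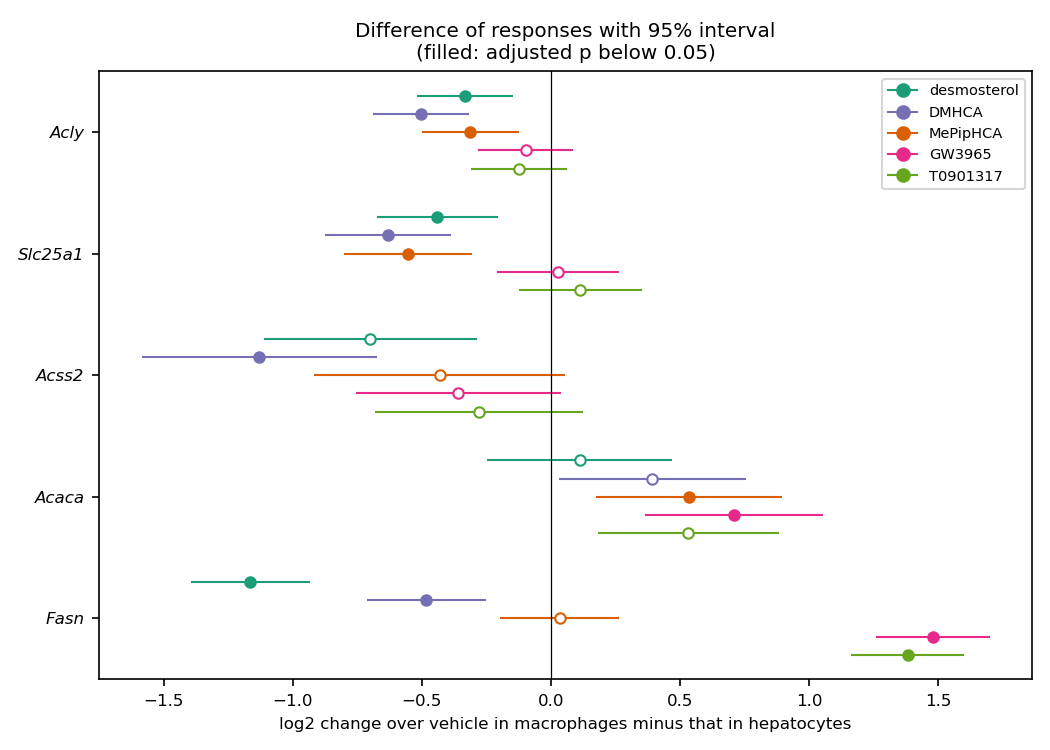
Log2 change over vehicle in macrophages minus that in hepatocytes, with its 95% interval, for 5 genes and 5 ligands, filled where the adjusted p was below 0.05. Acly, Slc25a1 and Acss2 lie left of 0 with desmosterol, DMHCA and MePipHCA, and Fasn runs between −1.16 with desmosterol and 1.48 with GW3965.

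Around the 10 genes, those for desaturation and elongation of fatty acids mostly fell with desmosterol and rose with the synthetic agonists in macrophages. Of 8 genes for desaturation and elongation, 1 rose and 6 fell with desmosterol, 3 rose and 4 fell with DMHCA and with MePipHCA, and 5 rose and 0 fell with GW3965 and with T0901317. Of all genes tested, 9.5% were called with desmosterol, 11.7% with DMHCA, 35.4% with MePipHCA, 13.2% with GW3965 and 12.8% with T0901317. The list's median change was −0.41 with desmosterol, −0.16 with DMHCA, −0.23 with MePipHCA, 0.81 with GW3965 and 0.73 with T0901317. The elongase Elovl6 fell by 1.40 ± 0.14 with desmosterol and 2.60 ± 0.19 with MePipHCA. The desaturase Scd1 rose by 4.29 ± 0.07 with GW3965 and 4.52 ± 0.07 with T0901317. In hepatocytes 3 of the 8 rose with each agonist, Scd1 by 2.30 ± 0.08 with GW3965 and 2.42 ± 0.08 with T0901317, where 0.364% and 0.486% of all genes were called higher. With MePipHCA 3 fell there, among them Scd2 (−1.78 ± 0.24), where 1.38% of all genes were called lower.

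The 2 SREBP genes among 11 lipogenic factors moved apart in macrophages. Srebf1 rose by 0.47 ± 0.06 with desmosterol, 1.53 ± 0.06 with DMHCA, 0.89 ± 0.07 with MePipHCA, 2.59 ± 0.06 with GW3965 and 2.60 ± 0.06 with T0901317. Srebf2, which encodes the cholesterol-side factor, fell by 1.08 ± 0.06 with desmosterol, 0.87 ± 0.07 with DMHCA and 2.00 ± 0.07 with MePipHCA. In hepatocytes Srebf1 rose by 1.22 ± 0.10 with GW3965 and 1.27 ± 0.11 with T0901317. Of 14 cholesterol synthesis genes, the neighbouring sterol pathway, 13 fell in macrophages with each of desmosterol, DMHCA and MePipHCA (medians −1.76, −1.80 and −2.31), where 4.57%, 5.9% and 18.3% of all genes were called lower. With GW3965 3 fell and 1 rose (6.69% of all genes lower), and with T0901317 4 fell and 1 rose (6.55%). In hepatocytes 12 of the 14 fell with MePipHCA (median −0.73, 1.38% of all genes lower), 2 with T0901317 (0.455%) and 1 with desmosterol (0.159%). A list of 9 LXR targets held Abca1 and Abcg1, but not all of its genes act in sterol efflux. Of these 9, 8 rose with DMHCA and 7 with each other ligand in macrophages, while 4.93% to 17.2% of all genes were called higher. In hepatocytes 3 of the 9 rose with each agonist, against the 0.364% and 0.486% of all genes given above.

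Another list held 6 genes of NADPH supply or of the pentose phosphate pathway. Of these, Idh1 rose in macrophages by 0.32 ± 0.05 with desmosterol, 0.58 ± 0.05 with DMHCA, 0.83 ± 0.05 with GW3965 and 0.73 ± 0.05 with T0901317. Tkt, a pentose phosphate enzyme, fell there by 0.35 ± 0.05 with desmosterol, 0.27 ± 0.05 with DMHCA and 0.82 ± 0.05 with MePipHCA. Among 12 regulators and relatives of the carboxylases, Mid1ip1, which promotes polymerisation of the carboxylase and is a paralogue of Thrsp, rose by 0.63 ± 0.06 with DMHCA, 0.89 ± 0.06 with MePipHCA, 1.42 ± 0.06 with GW3965 and 1.55 ± 0.06 with T0901317 in macrophages. In hepatocytes it rose by 1.05 ± 0.11 with GW3965 and 1.33 ± 0.11 with T0901317. Of 11 tested genes of glycolysis and pyruvate entry, 1 rose and 4 fell with MePipHCA in macrophages, where 35.4% of all genes were called. Of 13 in hepatocytes, 1 fell with MePipHCA, and the pyruvate dehydrogenase kinase Pdk4 fell with desmosterol (−0.99 ± 0.19). Of 6 other Mlxipl targets in hepatocytes, Txnip fell with MePipHCA (−0.70 ± 0.16) and Gpd1 rose with desmosterol (0.48 ± 0.09). Of all genes there, 1.38% were called lower with MePipHCA. With desmosterol 0.159% were called lower and 0.205% higher. The genes named are those of a list with the largest called changes and do not stand for the list.

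Genes whose group means lay nearest to those of Fasn over the 6 groups were ranked in each cell type by the root mean square difference of centred log2 CPM. Over 11544 macrophage genes the nearest outside the 10 were Acsl3, which activates long-chain fatty acids (0.47), Tlcd1 (0.58), Scd2 (0.60), Utp14b (0.64) and Scd4 (0.71), against a range of 3.84 for Fasn itself. Of the members, Acaca ranked 23, Acss2 31, Acly 92, Me1 123 and Slc25a1 166. Over 13176 hepatocyte genes the nearest were Pde4c (0.12), Lpcat3 (0.12), 2010320M18Rik (0.12), H2-K2 (0.13) and Srebf1 (0.14), against a Fasn range of 1.17. Acacb ranked 30, Acaca 33, Acss2 37, Acly 123 and Thrsp 400 there, with Pklr at 9011 and Mlxipl at 8915. These distances describe 6 group means from the libraries used above.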

How the data were processed

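Per the submitters' processing notes, reads were handled with STAR and HOMER on mm10, versions not given. The deposited raw tables hold counts of reads over exons of 1 RefSeq transcript per gene, without adjustment, per the file headers. The deposited RPKM tables, which per the file headers are normalised for length and depth, served only as a check. Over the 4 macrophage and 8 hepatocyte members with a mean deposited RPKM above 1 and the same transcript in both kinds of table, RPKM computed here on TMM-scaled libraries was 1.14 to 1.18 times the deposited value in macrophages and 1.22 to 1.26 times in hepatocytes. No strand setting appears in the headers. Antisense partners of a gene may therefore add to its count.

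The test was edgeR 4.0.16 under R 4.3.3 (filterByExpr at a minimum count of 10, TMM factors, quasi-likelihood fit of the 6 groups of a cell type together, Benjamini-Hochberg adjustment over all genes). This left 11544 genes with 12 residual degrees of freedom in macrophages and 13176 with 6 in hepatocytes. Differences between cell types came from 1 fit of 30 libraries joined by symbol (13700 genes). SE is the fold change over the root of the F statistic. DESeq2 1.42.0 was an alternative. A simulation covered only desmosterol against vehicle in each cell type, with the same spread for all genes. It did not test the joint fit. Figures used matplotlib.

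Members were read in every comparison that tested them, though not each is named in each comparison. Of each other list up to 2 genes with the largest called change are named. The members and lists were chosen with earlier results of these data known. The deviations of like-numbered replicates correlated at −0.07 to 0.14 in macrophages, with 2 of 45 pairs over 0.1, and at −0.02 to 0.06 in hepatocytes, and the main fit did not treat the numbers as pairs. Yet 14 of 18 macrophage libraries, with 3 numbers to match, and 10 of 12 hepatocyte libraries, with 2, deviated most like their own number. The 12 hepatocyte libraries are not separate cases here. The 2 deviations of a hepatocyte group mirror each other, so its libraries match or fail together. A weak structure shared by like-numbered libraries is still not excluded. No 2 libraries were identical. Alternatives were DESeq2's factors and test, no filter, a replicate block, the compared groups alone, libraries thinned to 1 depth and leaving out each library.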

Additional observations from a re-analysis of the deposited data

Results flagged for a closer look

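In 13 cases a member's change over vehicle differed between macrophages and hepatocytes by the interaction test in edgeR's quasi-likelihood fit. On the log2 scale, macrophages minus hepatocytes, these were, for Fasn, −1.16 with desmosterol, −0.48 with DMHCA, 1.48 with GW3965 and 1.38 with T0901317. For Acly they were −0.33 with desmosterol, −0.50 with DMHCA and −0.31 with MePipHCA. Slc25a1 gave −0.44 with desmosterol, −0.63 with DMHCA and −0.55 with MePipHCA. Acss2 gave −1.13 with DMHCA, and Acaca gave 0.54 with MePipHCA and 0.71 with GW3965. Medium and the dates in the sample titles changed with the cell type and cannot be told apart from it. No group had 4 or more libraries, so single libraries were not tested as outliers.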

How the results depend on the processing

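Of 184 member results, 75 were calls, and 53 of these held in every alternative run, while 22 were lost in at least one and 11 others were gained. No called direction reversed. GW3965 in hepatocytes called 5 members with no filter, 4 by DESeq2 and 4 with only the compared groups, in place of 2. DMHCA against T0901317 there called 5 with no filter and 5 by DESeq2 in place of 3, MePipHCA against DMHCA called 3 with only the compared groups in place of 5, and the desmosterol difference between cell types called 1 with thinned libraries in place of 3. Leaving out 1 library at a time gave 1 to 3 calls for MePipHCA against DMHCA in macrophages and, in hepatocytes, 1 to 2 for GW3965, 1 to 2 for T0901317, 2 to 5 for MePipHCA against DMHCA and 1 to 3 for DMHCA against T0901317. Between cell types it gave 1 to 3 for desmosterol, 1 to 3 for MePipHCA and 1 to 2 for GW3965. The cause was not tested, beyond the fewer libraries or reads in each.

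Counts over all genes moved by over 1.5 times as follows. With no filter, hepatocyte calls were 139 for desmosterol (48 in the main analysis), 22 for DMHCA (0), 163 for GW3965 (63), 256 for T0901317 (124), 271 for DMHCA against T0901317 (130) and 9 for GW3965 against T0901317 (0), and 15 for the last pair in macrophages (2). By DESeq2 they were 85 for desmosterol, 201 for T0901317 and 200 for DMHCA against T0901317 in hepatocytes. With only the compared groups they were 490 for MePipHCA (286), 107 for GW3965 and 63 for DMHCA against T0901317 in hepatocytes, and 8 for GW3965 against T0901317 in macrophages. Thinned libraries gave 684 for desmosterol in macrophages (1097), and between cell types 190 for desmosterol (346), 247 for GW3965 (426) and 315 for T0901317 (498). Leaving out single libraries moved 35 such counts. In macrophages they gave 665 to 1042 for desmosterol, 898 to 1205 for DMHCA (1350), 0 to 2 for GW3965 against T0901317 and 336 to 495 for DMHCA against T0901317 (591). In hepatocytes they gave 15 to 41 for desmosterol, 0 to 27 for DMHCA, 114 to 207 for MePipHCA, 28 to 54 for GW3965, 48 to 107 for T0901317, 177 to 779 for MePipHCA against DMHCA (435), 59 to 168 for DMHCA against T0901317 and 298 to 482 for MePipHCA against T0901317 (797). Between cell types they gave 207 to 301 for desmosterol, 202 to 648 for DMHCA (377), 260 to 383 for GW3965 and 331 to 483 for T0901317. The lowest came without macrophage vehicle replicate 2 for desmosterol and DMHCA in macrophages, and without hepatocyte vehicle replicate 1 for these 4 between cell types. In hepatocytes the lowest came without replicate 2 of desmosterol and of MePipHCA for those ligands against vehicle, and without replicate 1 of GW3965 and of T0901317 for theirs.

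The replicate block moved no count of members by over 1.5 times and moved 1 count over all genes, DMHCA in hepatocytes, to 1. Under it Acacb with GW3965 (0.67, adjusted p = 0.0361) and Acss2 with DMHCA against T0901317 (−0.47, 0.0485) in hepatocytes, and Acly with T0901317 in macrophages (0.15, 0.0496), became calls, and Acaca with MePipHCA between cell types (0.54, 0.0524) was lost. Each library deviated most like its own number in 14 of 18 macrophage and 10 of 12 hepatocyte cases, where the 2 libraries of a group match or fail together. Low counts limit what can be said of Me1, Acacb, Mlxipl, Thrsp and Pklr in macrophages, and 2 libraries per group limit the hepatocytes.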
